A study of Caenorhabditis elegans with 6 samples.

Results

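The C-type lectin genes of *Caenorhabditis elegans* were taken as every gene of the deposited RNA-seq tables whose name is *clec-* followed by a number. There were 235 such genes among 20661 genes tested, and the RefSeq annotation lists 20 of them as pseudogenes. RNA had been sequenced from the WT strain N2, from *daf-2(-)* worms carrying the allele *e1370*, and from *daf-16(-);daf-2(-)* worms carrying *mgDf50* and *e1370*, called the double mutant here, with 2 libraries of each strain. The *e1370* allele lowers signalling through DAF-2, the insulin/IGF-1 receptor, while *mgDf50* deletes part of *daf-16*, the gene of the FOXO transcription factor that becomes active when this signalling is low. All 3 strains were grown as mixed-stage cultures on OP50 *E. coli* at 20 °C, so each library pools whole animals of all stages. In such samples fewer cells of a type and less RNA per cell cannot be told apart. The labels number the libraries of a strain and do not say that they came from separate cultures, so p-values measure the spread between these libraries, which may be technical.

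C-type lectins carry a C-type lectin-like domain, a fold that in many animal proteins binds sugars in a calcium-dependent manner. Nematodes have a very large family of them, and many members are secreted proteins or membrane proteins of the intestine. Several change in expression when worms meet bacterial pathogens, which is why the family is often read together with lysozymes and saposin-like proteins as part of innate immunity. For most members no function is known.

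Expression was given as RPKM, the reads of a gene per kilobase of its length and scaled to the mapped reads of the library. The deletion showed in *daf-16* itself, at 24.9 and 29.4 RPKM for WT, 25.2 and 22.4 for *daf-2(-)* and 6.44 and 4.6 for the double mutant. Relative depth was estimated from the most common ratio of low values of the same gene in a library and in WT replicate 1. This ratio was assumed to be that of 1 read to 1 read. By this estimate 1 read was worth between 1 and 1.64 times its RPKM in WT replicate 1. The highest value, and so the shallowest library, was *daf-2(-)* replicate 2. The number of reads itself is not given in the tables, so a counting error per gene cannot be stated. Over the 96 *clec* genes with a mean of at least 1 RPKM, the replicates differed by a median log2 size that was 0.28 for WT, 0.18 for *daf-2(-)* and 0.31 for the double mutant, against 0.20, 0.23 and 0.24 over all 14395 genes at that level. Levels of some stage and tissue markers differed between strains. All 10 oocyte and germline markers were lower in *daf-2(-)* than in the double mutant and 7 of them lower than in WT, with summed levels of 778 and 808 RPKM for WT, 358 and 281 for *daf-2(-)* and 1737 and 1298 for the double mutant. Of 6 larval epidermis markers 5 were lower in *daf-2(-)* than in either strain. Of 10 intestinal markers only *ges-1* passed the test, higher in *daf-2(-)*. The sum of these 10 was 4603 and 5268 RPKM for WT, 5771 and 6821 for *daf-2(-)* and 3169 and 4406 for the double mutant. Most of that sum came from *asp-1*, at 2816 and 3463 RPKM (WT), 3972 and 4783 (*daf-2(-)*) and 1872 and 2674 (double mutant). By log2 fold change, *pept-1*, *pho-1* and *nhx-2* were lower in *daf-2(-)* than in either strain and the other intestinal markers higher. The median over these 10 was 0.12 relative to WT and 0.42 relative to the double mutant. Of 5 embryonic markers 2 were lower than in WT and 3 lower than in the double mutant, and of 6 adult markers 1 was higher than in WT. None of 10 sperm, 4 body muscle or 7 neuronal markers passed in any comparison.

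Most *clec* genes were weakly expressed. Of the 235, 121 were above 0 in all 6 libraries and 28 in only 1 library. A mean of at least 1 RPKM was reached by 96, of at least 10 by 47 and of at least 100 by 15, and 66 stayed under 0.1. Levels were dominated by a few genes. The 10 members of highest mean over the 6 libraries, the same genes in each library, held between 63.3% and 73.4% of the summed RPKM of the family. That sum was 3908.5 and 5422.3 RPKM for WT, 8583.9 and 9587.0 for *daf-2(-)* and 4786.8 and 5718.5 for the double mutant. Both *daf-2(-)* libraries lay above all 4 others. Without *clec-63*, *clec-50* and *clec-87*, the 3 genes of highest mean, the sums were 2414.3 and 3196.8, 5248.0 and 5568.4, and 2874.3 and 3541.1 RPKM, with both *daf-2(-)* libraries again above the others. As a share of the RPKM of all genes, the family held 0.41% and 0.536% for WT, 0.795% and 0.905% for *daf-2(-)* and 0.524% and 0.559% for the double mutant.

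Differences between strains were tested with limma on log2(RPKM + 1) in 1 fit over the 6 libraries, and a gene was called at a Benjamini-Hochberg adjusted p of at most 0.05 over all 20661 genes together with a fold change of at least 2. Fold changes are on this log2(RPKM + 1) scale, which understates the change of weakly expressed genes. The comparison of *daf-2(-)* with WT asks how the family responds to low insulin signalling, and that of *daf-2(-)* with the double mutant asks how much of the level under low signalling needs *daf-16*. Both use the same *daf-2(-)* libraries, so the values of one are not independent of the other.

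In *daf-2(-)*, 21 *clec* genes were higher and 14 lower than in WT, where 4.54% of all genes were called higher and 7.14% lower. Of the 139 members under 1 RPKM, 1 was called higher than in WT and 3 lower than in the double mutant. Of all genes at that level 1.09% were higher and 0.447% lower than in WT, and 1.12% and 1.01% against the double mutant. Among the 96 members with a mean of at least 1 RPKM, 20 were higher and 14 lower, and of all genes at that level 6.04% were higher and 10.1% lower. The median log2 fold change of the 96 was 0.36, against -0.28 over all genes at that level. Against the double mutant, 29 members were higher in *daf-2(-)* and 23 lower, where 5.46% of all genes were called higher and 15.5% lower. Of the 96 members, 29 were higher and 20 lower, of all genes at that level 7.36% and 21.9%, and the medians were 0.21 and -0.34. The libraries of the strains compared did not overlap in any called member, nor in any of the 938, 1476, 1129 and 3210 called genes of the whole table. As shares of the 96, the members higher made up 20.8% against WT and 30.2% against the double mutant, each above the share of all genes at that level, and those lower 14.6% and 20.8%, of which the second was near it. The part of the marker levels given above in these counts was not tested.

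The balance of higher and lower calls moved with the scaling of the libraries. The members higher in *daf-2(-)* made up 60% of the calls against WT as deposited, 75.6% after median-ratio scaling (31 higher and 10 lower) and 66.7% with quantile normalization (24 and 12). Of the calls over all genes, 38.9%, 71.3% and 62.3% were higher under the same settings. Against the double mutant the shares of the members were 55.8%, 71.2% (37 and 15) and 71.4% (35 and 14), and those of all genes 26%, 57.1% and 51.1%. Median-ratio scaling moved the median over the 14395 genes from -0.28 to -0.02 against WT and from -0.34 to 0.02 against the double mutant. Of the 29 members higher than in the double mutant all were called under both scalings, and of the 23 lower, 14 were. Against WT, 19 of the 21 higher and 10 of the 14 lower calls were made under both.

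**Figure D1:**
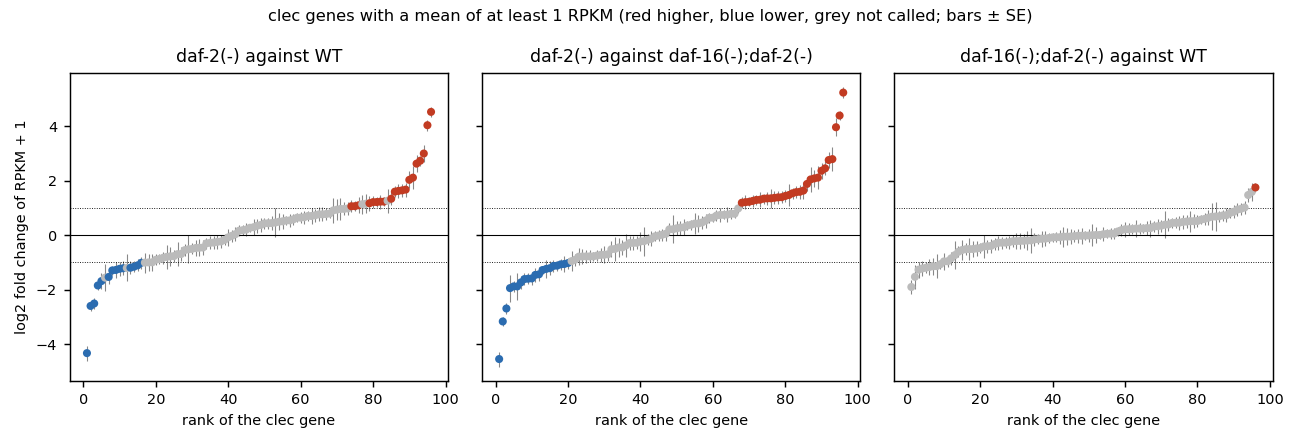
Log2 fold change of RPKM + 1 (vertical axis) of the 96 *clec* genes with a mean of at least 1 RPKM, ranked from lowest to highest in each of 3 comparisons (panels), with bars of ± SE and dotted lines at a 2-fold change. Red points are called higher, blue points lower and grey points are not called; both *daf-2(-)* panels reach beyond 4 in each direction, while in the double mutant against WT 1 gene, *clec-41*, is called.

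**Figure D2:**
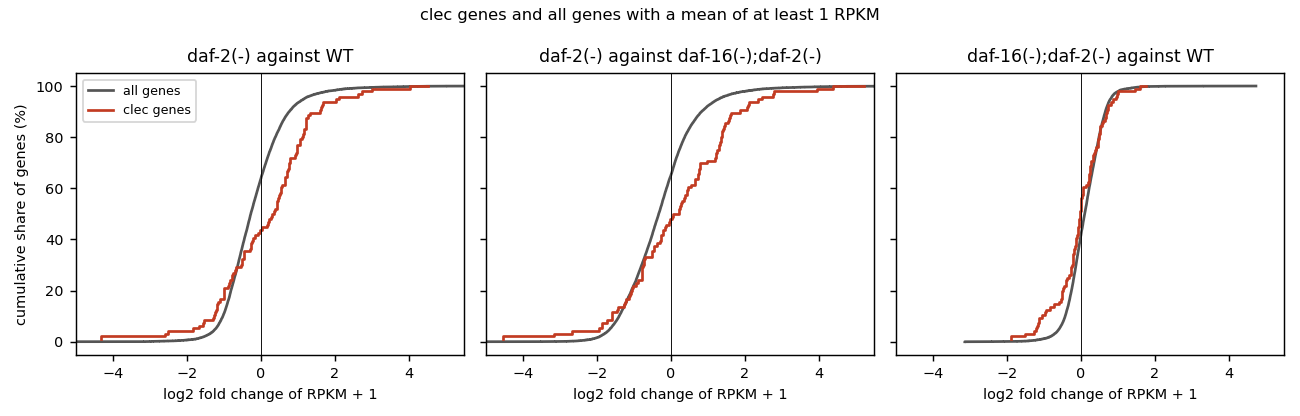
Cumulative share of genes (%, vertical axis) by log2 fold change of RPKM + 1 (horizontal axis) for the 96 *clec* genes (red) and all 14395 genes (grey) with a mean of at least 1 RPKM in the 3 comparisons. The red curve lies to the right of the grey one over most of the range in the panels of *daf-2(-)* (medians 0.36 against -0.28 and 0.21 against -0.34) and close to it in the double mutant against WT (-0.02 against 0.10).

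The largest increases belonged to *clec-258* and *clec-52*. *clec-258* (WBGene00010928, chromosome V) stood at 22.2 and 22.6 RPKM for WT, 571 and 503 for *daf-2(-)* and 20.9 and 29.2 for the double mutant. Both *daf-2(-)* libraries were more than an order of magnitude above all 4 others, which overlapped each other. Its log2 fold change was 4.52 (SE 0.18, adjusted p = 0.000442) against WT and 4.38 (SE 0.18, adjusted p = 0.00027) against the double mutant, rank 13 and rank 32 from the top of all genes. *clec-52* (WBGene00015052, chromosome IV), whose transcript is known to respond to *Staphylococcus aureus*, stood at 39.6 and 49.5 RPKM for WT, 765 and 712 for *daf-2(-)* and 15.7 and 22.4 for the double mutant. The *daf-2(-)* libraries were again far above the rest, and here the double mutant lay below WT without overlap. The log2 fold change of *clec-52* was 4.03 (SE 0.20, adjusted p = 0.000448) against WT and 5.23 (SE 0.20, adjusted p = 0.00027) against the double mutant, rank 29 and rank 16 of all genes.

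A further set rose by smaller factors from high levels. *clec-63* (WBGene00009394, chromosome II), the member of highest mean, stood at 600.4 and 932 RPKM for WT, 2053 and 2590.01 for *daf-2(-)* and 666 and 879 for the double mutant. It was among the 102 most highly expressed genes of both *daf-2(-)* libraries, and between rank 181 and rank 256 in the other 4. Its log2 fold changes were 1.62 (SE 0.26, adjusted p = 0.00982) and 1.59 (SE 0.26, adjusted p = 0.00417). *clec-50*, second in mean level, stood at 450.1 and 628 RPKM for WT, 1028 and 1197 for *daf-2(-)* and 325 and 425 for the double mutant, and its neighbour *clec-49* at 34.3 and 41.2 RPKM (WT), 84.7 and 92.2 (*daf-2(-)*) and 25.4 and 40.3 (double mutant). In both genes the *daf-2(-)* libraries were above all others, and the WT and double mutant libraries of *clec-49* overlapped. *clec-50* had log2 fold changes of 1.06 (SE 0.22, adjusted p = 0.0172) and 1.58 (SE 0.22, adjusted p = 0.00258), and the first of these lost its call under quantile normalization.

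*clec-85*, a gene known to depend on p38 MAPK immune signalling, stood at 38.7 and 75.3 RPKM for WT, 298 and 383 for *daf-2(-)* and 46.4 and 52.2 for the double mutant. The gap between its WT libraries was wide, yet the lowest *daf-2(-)* library was well above the highest WT library. Its log2 fold changes were 2.62 (SE 0.30, adjusted p = 0.00419) against WT and 2.75 (SE 0.30, adjusted p = 0.00166) against the double mutant. In the WBcel235 annotation 27.7% of its exon bases overlap *Y54G2A.40* on the same strand, so reads in that stretch cannot be assigned to one gene. *clec-62* stood at 20.7 and 39.9 RPKM for WT, 109 and 133 for *daf-2(-)* and 23.4 and 32.8 for the double mutant, with log2 fold changes of 2.03 and 2.08. *clec-48* stood at 78.2 and 92.3 RPKM (WT), 241 and 278 (*daf-2(-)*) and 73.9 and 106 (double mutant), with 1.59 and 1.54, and *clec-146* at 23.2 and 24.8 RPKM (WT), 62.9 and 52.7 (*daf-2(-)*) and 22.3 and 26.1 (double mutant), with 1.23 and 1.22. In these 3 genes the double mutant libraries overlapped those of WT.

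*clec-83*, *clec-150* and *clec-1* were other strongly expressed genes with both *daf-2(-)* libraries above the other 4, as *clec-65* and *clec-84* were. *clec-83* stood at 171 and 181 RPKM for WT, 349 and 389 for *daf-2(-)* and 121 and 174 for the double mutant, and was called against both, the call against WT being lost under quantile normalization. *clec-150* stood at 174 and 224 RPKM (WT), 359.8 and 423 (*daf-2(-)*) and 134 and 198 (double mutant), with a log2 fold change of 1.26 (SE 0.22, adjusted p = 0.00558) against the double mutant and of 0.98 against WT, under the 2-fold limit. *clec-1* stood at 286 and 325 RPKM (WT), 473 and 477 (*daf-2(-)*) and 238 and 318 (double mutant), with 0.64 against WT and 0.78 against the double mutant, also under the limit.

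*clec-222* and *clec-60* were called against the double mutant and not against WT. *clec-222* stood at 23.3 and 65.0 RPKM for WT, 70.3 and 78.2 for *daf-2(-)* and 13.5 and 21.9 for the double mutant, so WT replicate 2 came close to the *daf-2(-)* libraries and WT replicate 1 to those of the double mutant. Its log2 fold change against the double mutant was 2.04 (SE 0.45, adjusted p = 0.0123), and the call was lost at the adjusted p without either *daf-2(-)* library or either double mutant library. The difference between its changes in the 2 comparisons is the double mutant against WT, which did not pass (log2 fold change -1.14, adjusted p = 0.238).

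**Figure D3:**
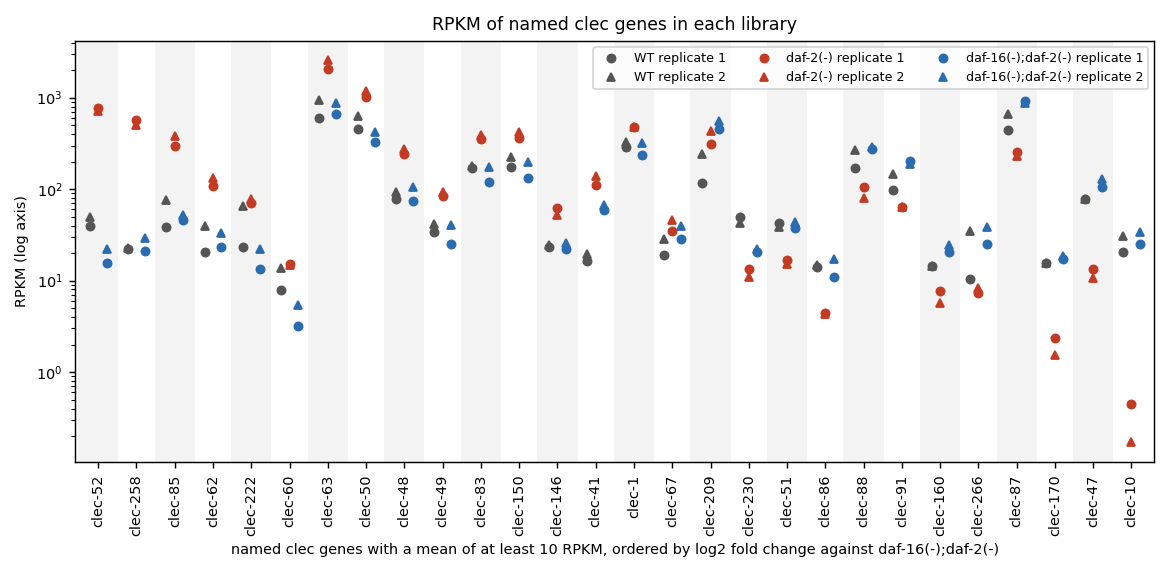
RPKM (log axis) of the 28 named *clec* genes with a mean of at least 10 RPKM in each of the 6 libraries (grey WT, red *daf-2(-)*, blue *daf-16(-);daf-2(-)*; circles replicate 1, triangles replicate 2), ordered by log2 fold change of *daf-2(-)* against the double mutant. The red points lie far above the others at *clec-52* and *clec-258* on the left and far below them at *clec-10* on the right.

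The largest decreases belonged to *clec-10*, *clec-47* and *clec-170*. *clec-10* (WBGene00015403, chromosome II) stood at 20.7 and 30.4 RPKM for WT, 0.45 and 0.17 for *daf-2(-)* and 25.0 and 34.4 for the double mutant. It was nearly absent from both *daf-2(-)* libraries, while WT and the double mutant overlapped. Its log2 fold change was -4.32 (SE 0.28, adjusted p = 0.000711) against WT and -4.54 (SE 0.28, adjusted p = 0.00042) against the double mutant, rank 3 and rank 2 from the lowest of all genes. *clec-47* (WBGene00011668, chromosome V) stood at 77.7 and 78.1 RPKM for WT, 13.5 and 10.8 for *daf-2(-)* and 105 and 128 for the double mutant, with log2 fold changes of -2.60 (SE 0.17, adjusted p = 0.000711) and -3.16 (SE 0.17, adjusted p = 0.000326). *clec-170* stood at 15.4 and 15.6 RPKM (WT), 2.33 and 1.54 (*daf-2(-)*) and 17.1 and 18.4 (double mutant), with -2.51 (SE 0.22, adjusted p = 0.00179) and -2.69 (SE 0.22, adjusted p = 0.000937). The double mutant lay above WT in both genes without overlap, by less than the 2-fold limit.

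*clec-87* and *clec-88* encode chondroitin proteoglycans, proteins that carry chondroitin chains. *clec-87* (WBGene00007709, chromosome I) stood at 444 and 665 RPKM for WT, 255 and 232 for *daf-2(-)* and 922 and 873 for the double mutant. *clec-88* stood at 170.4 and 268 RPKM (WT), 107 and 80.8 (*daf-2(-)*) and 277 and 285 (double mutant), and *clec-91* at 98.4 and 147 RPKM (WT), 63.4 and 64.1 (*daf-2(-)*) and 202 and 188 (double mutant). In all 3 genes the order was *daf-2(-)* lowest, WT next and the double mutant highest, with no overlap of the strains. The 10 oocyte and germline markers had the same order of their summed levels, given above, and the part of stage composition in these 3 genes was not tested. Against the double mutant the log2 fold changes were -1.88 (SE 0.20, adjusted p = 0.00166) for *clec-87*, -1.59 for *clec-88* and -1.60 for *clec-91*. Against WT they were -1.16, -1.19 and -0.90, the last under the 2-fold limit, and the calls of *clec-87* and *clec-88* against WT were lost with median-ratio scaling. In the WBcel235 annotation 14.4% of the exon bases of *clec-87* overlap *iars-2* on the other strand. Of all members, 17 had over 5% of their exon bases overlapping another gene. Among them were *clec-266* (12.2%), *clec-86* (10.5%), *clec-83* (6.7%) and *clec-51* (5.7%) on the other strand and *clec-82* (7.2%) on the same strand.

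*clec-160* followed that order too, at 14.4 and 14.4 RPKM for WT, 7.79 and 5.63 for *daf-2(-)* and 20.4 and 24.4 for the double mutant, and its log2 fold change against the double mutant was -1.61 (SE 0.21, adjusted p = 0.00233). The call of *clec-160* against WT was lost under both scalings. *clec-51* stood at 42.5 and 38.9 RPKM for WT, 16.9 and 15.1 for *daf-2(-)* and 37.2 and 43.4 for the double mutant, where WT and the double mutant overlapped. Its log2 fold change was -1.29 (SE 0.16, adjusted p = 0.00496) against WT and -1.28 (SE 0.16, adjusted p = 0.00207) against the double mutant, the latter call being lost under both scalings. *clec-266* stood at 10.5 and 34.6 RPKM (WT), 7.28 and 8.35 (*daf-2(-)*) and 25.4 and 38.6 (double mutant), and it was not called against WT, where its libraries were far apart. It was called against the double mutant (-1.88), a call lost under quantile normalization and, at the adjusted and the unadjusted p alike, without any 1 of the 4 libraries compared.

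*clec-230* behaved in another way. It stood at 49.9 and 42.6 RPKM for WT, 13.4 and 10.97 for *daf-2(-)* and 20.8 and 22.2 for the double mutant, so that both mutant strains lay below WT and *daf-2(-)* lowest, with no overlap. The log2 fold change was -1.84 (SE 0.17, adjusted p = 0.00229) against WT, -0.78 against the double mutant and, in the double mutant against WT, -1.07 (SE 0.17, adjusted p = 0.105). Its neighbour *clec-229* showed the same order, at 5.97 and 5.74 RPKM for WT, 1.37 and 0.92 for *daf-2(-)* and 2.88 and 1.40 for the double mutant, and was called against WT (-1.68).

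Few members passed the test between the double mutant and WT. At the adjusted p of limma 1 member, *clec-41*, was higher and 0 were lower, where 0.116% and 0.0387% of all genes were called. At an unadjusted p, 4 members were higher and 9 lower (1.42% and 0.736% of all genes). The median log2 fold change of the 96 members was -0.02 against 0.10 for all genes at that level. *clec-41* (WBGene00007153, chromosome V), which is known to act in the response to *Bacillus thuringiensis*, stood at 16.3 and 19.7 RPKM for WT, 111 and 139.6 for *daf-2(-)* and 58.5 and 67.1 for the double mutant. The strains did not overlap, and the double mutant lay between the other 2. For *clec-41* the log2 fold change was 1.75 (SE 0.18, adjusted p = 0.0397) between the double mutant and WT, 2.73 (SE 0.18, adjusted p = 0.000711) in *daf-2(-)* against WT and 0.98 in *daf-2(-)* against the double mutant, just under the 2-fold limit. Its call in the double mutant was lost at the adjusted p without any 1 of the 6 libraries, with the replicate block, with separate fits and without the trend, and was made at an unadjusted p without each library in turn.

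*clec-209* stood at 116 and 241 RPKM for WT, 311 and 436 for *daf-2(-)* and 453 and 559.5 for the double mutant, the only one of the 10 most highly expressed members with its highest libraries in the double mutant apart from *clec-87* and *clec-88*. The log2 fold change of *clec-209* between the double mutant and WT, 1.58 (SE 0.34, adjusted p = 0.168), did not pass. The annotation holds 2 genes of that name, whose sequences were not compared, so its values may combine or split the reads of both. Among the 9 genes lower at an unadjusted p were *clec-76*, at 9.20 and 8.87 RPKM for WT, 6.23 and 4.35 for *daf-2(-)* and 1.95 and 1.45 for the double mutant, and *clec-52*, *clec-60* and *clec-222*. These 4 had adjusted p-values of 0.0605, 0.109, 0.184 and 0.238.

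A chosen list held 13 members linked to bacterial pathogens in earlier work on worms, and it need not be complete. In *daf-2(-)*, 5 of these 13 were higher than in WT (*clec-41*, *clec-49*, *clec-52*, *clec-61* and *clec-85*) and 1 lower (*clec-86*), and against the double mutant 6 were higher (*clec-17*, *clec-49*, *clec-52*, *clec-60*, *clec-61* and *clec-85*) and 2 lower (*clec-4* and *clec-86*). The shares of all genes called were those above, 4.54% and 7.14% against WT and 5.46% and 15.5% against the double mutant, and the 13 were chosen with results of these data known. *clec-60* and *clec-61* are neighbours that respond to Gram-positive pathogens. *clec-61* stood at 0.69 and 2.08 RPKM for WT, 15.3 and 19.2 for *daf-2(-)* and 0.18 and 0.16 for the double mutant, with a log2 fold change of 2.99 (SE 0.32, adjusted p = 0.00363) against WT and 3.96 (SE 0.32, adjusted p = 0.000991) against the double mutant. *clec-60* stood at 7.95 and 13.6 RPKM (WT), 15.3 and 14.8 (*daf-2(-)*) and 3.22 and 5.35 (double mutant). Both *daf-2(-)* libraries of *clec-60* were above WT by little, with a log2 fold change of 0.49 that did not pass, and the change against the double mutant was 1.63 (SE 0.31, adjusted p = 0.00699).

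*clec-17* stood at 3.06 and 4.02 RPKM for WT, 5.49 and 5.65 for *daf-2(-)* and 1.43 and 1.58 for the double mutant, and passed against the double mutant (1.39) but not against WT (0.54). *clec-86* stood at 14.2 and 14.9 RPKM (WT), 4.38 and 4.36 (*daf-2(-)*) and 10.8 and 17.4 (double mutant), lower in *daf-2(-)* than in both, with log2 fold changes of -1.53 and -1.46. *clec-4* stood at 3.10 and 11.7 RPKM (WT), 1.61 and 1.30 (*daf-2(-)*) and 7.73 and 9.14 (double mutant), a change of -1.94 against the double mutant, whose call was lost without any 1 of the 4 libraries compared. The WT libraries of *clec-4* were far apart, and its -1.56 against WT was not called. *clec-67* stood at 19.2 and 28.4 RPKM (WT), 35.1 and 46.3 (*daf-2(-)*) and 28.8 and 39.5 (double mutant) and passed in no comparison. *clec-42* and *clec-70* lay between 0.54 and 1.55 RPKM in all libraries with overlapping strains, and *clec-39* was absent from the tables of WT and *daf-2(-)* and stood at 0.12 and 0 RPKM in the double mutant.

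Many *clec* genes lie next to each other. By the gene order of the RefSeq annotation (WBcel235), 143 of the 234 members matched by name lay in 43 groups of neighbours, with at most 2 other genes between one member and the next. Chromosome V held 84 members, IV 54, II 44, I 32, III 17 and X 3. Of the members called higher in *daf-2(-)*, 18 of 21 against WT and 23 of 29 against the double mutant lay in such groups, and of those called lower 7 of 14 and 10 of 23. Groups with at least 2 members higher numbered 6 against WT and 8 against the double mutant, and those with at least 2 lower 1 and 2. Members of a group can be near-identical copies, and neighbours are not independent of each other.

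On chromosome II, *clec-62*, *clec-63* and *clec-65* were higher in *daf-2(-)* than in the double mutant, and *clec-66* next to them was not called. *clec-65* stood at 55.3 and 124 RPKM for WT, 167 and 206 for *daf-2(-)* and 67.3 and 77.4 for the double mutant, and was not called against WT, where its libraries were far apart. Its call against the double mutant was lost without any 1 of the 4 libraries compared, at the adjusted and the unadjusted p alike. On chromosome IV, *clec-82*, *clec-83* and *clec-85* were higher than in the double mutant. *clec-82* stood at 5.82 and 8.80 RPKM (WT), 18.6 and 18.6 (*daf-2(-)*) and 0.75 and 3.60 (double mutant), which gave a log2 fold change of 2.79 (SE 0.45, adjusted p = 0.00399) against the double mutant. On chromosome V, *clec-227*, *clec-56* and *clec-55* of a group of 5 were higher, *clec-56* at 29.8 and 38.7 RPKM for WT, 73.2 and 87.9 for *daf-2(-)* and 29.4 and 35.2 for the double mutant, with 1.21 against WT and 1.29 against the double mutant. The call of *clec-55* was lost with separate fits and, at the adjusted p, without any 1 of the 6 libraries. *clec-13* and *clec-15* on chromosome I were higher than in both strains. They have equal exon lengths and the WBcel235 annotation gives both the name *clec-15*, so reads may not separate them and their values, 1.54 and 2.68 RPKM (WT), 5.59 and 6.78 (*daf-2(-)*) and 0.42 and 0.21 (double mutant) for *clec-13* and 1.59 and 3.16 RPKM (WT), 5.25 and 6.86 (*daf-2(-)*) and 0.36 and 0.37 (double mutant) for *clec-15*, are uncertain.

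Neighbours also moved in opposite directions. Groups with calls in both directions numbered 2 against WT and 4 against the double mutant. Among the latter was a group of 12 on chromosome IV, where *clec-174* and *clec-76* were higher and *clec-71* lower than in the double mutant. *clec-51* and *clec-52* are adjacent members on chromosome IV, and the first was lower and the second higher in *daf-2(-)* in both comparisons, with values given above. On chromosome II, *clec-8* was higher than in both strains, at 2.38 and 3.82 RPKM for WT, 11.4 and 12.3 for *daf-2(-)* and 2.48 and 2.51 for the double mutant, while *clec-4* beside it was lower than in the double mutant. On chromosome III, *clec-5* was lower than in WT, at 49.9 and 54.5 RPKM (WT), 24.01 and 23.34 (*daf-2(-)*) and 32.8 and 51.9 (double mutant), and *clec-6* higher, at 0.21 and 0.36 RPKM (WT), 1.85 and 1.61 (*daf-2(-)*) and 0.91 and 0.70 (double mutant). The call of *clec-5* was lost under both scalings. In a group of 6 on chromosome IV, *clec-170* was lower and *clec-169* higher than in the double mutant, the latter at 4.63 and 4.51 RPKM (WT), 8.68 and 11.2 (*daf-2(-)*) and 2.77 and 3.69 (double mutant).

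**Figure D4:**
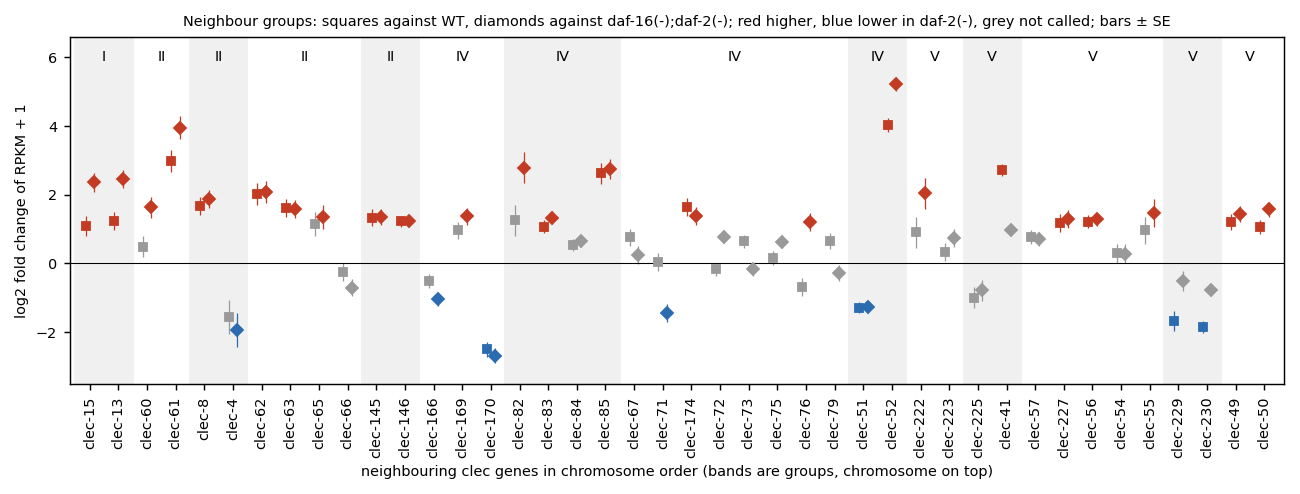
Log2 fold change of RPKM + 1 (vertical axis, bars ± SE) of *clec* genes with a mean of at least 1 RPKM in groups of neighbours that hold a called member and more than 1 gene at that level, in chromosome order with the chromosome on top; squares give *daf-2(-)* against WT and diamonds against the double mutant, red called higher, blue called lower and grey not called. Most called neighbours drawn share a colour, and *clec-51* (-1.29 and -1.28) next to *clec-52* (4.03 and 5.23) does not. The pair *clec-5* and *clec-6*, called in opposite directions against WT, is not drawn, since *clec-6* lies under that level.

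Other groups were nearly silent. The 15 members of the longest group, on chromosome V, held 1 gene with a mean of at least 1 RPKM, *clec-26*, at 1.22 and 0.60 RPKM for WT, 0.39 and 0.75 for *daf-2(-)* and 2.69 and 2.15 for the double mutant. In 27 of the 43 groups no member was called against WT, and likewise 27 against the double mutant. On the X chromosome all 3 members were lower than in the double mutant, where 15.5% of all genes were called lower. Of these, *clec-265* stood at 52.2 and 65.7 RPKM for WT, 32.8 and 30.2 for *daf-2(-)* and 61.5 and 78.7 for the double mutant, a call lost under both scalings. The call of *clec-266* was lost under quantile normalization, and only that of *clec-86* was kept under both scalings.

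The calls were also counted by expression level. Of the 15 with a mean of at least 100 RPKM, 7 were higher and 2 lower than in WT, and 9 and 3 relative to the double mutant, where of all genes at that level 12.2% and 4.91%, and 15.6% and 7.99%, were called. Of the 32 between 10 and 100 RPKM, 5 were higher and 8 lower than in WT, and 7 and 9 against the double mutant, with 5.17%, 12.5%, 6.7% and 30.8% of all genes. Of the 49 between 1 and 10 RPKM, 8 were higher and 4 lower than in WT, and 13 and 8 against the double mutant, with 5.54%, 8.59%, 6.1% and 15.1% of all genes. Among weakly expressed genes, *clec-18* was absent from the tables of WT and of the double mutant and stood at 6.1 and 1.6 RPKM in *daf-2(-)*. *clec-246* was absent from the *daf-2(-)* table and stood at 0.71 and 0.55 RPKM in WT and at 1.11 and 1.60 in the double mutant. An absent gene entered the fit as 0. *clec-174* stood at 0.19 and 0.16 for WT, 3.77 and 1.82 for *daf-2(-)* and 0.38 and 0.43 for the double mutant, and *clec-71*, at 0.64 and 1.11 RPKM (WT), 0.61 and 1.26 (*daf-2(-)*) and 4.76 and 3.62 (double mutant), had its highest libraries in the double mutant. How many reads stand behind these low values is not known.

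The other immune genes listed beside the lectins were read in the same fit. None of 6 measured genes of the p38 MAPK cascade (*tir-1*, *sek-1*, *pmk-1*, *atf-7*, *vhp-1* and *tpa-1*) and none of 10 immune transcription factors and receptors was called in any comparison. Of 61 secreted effectors taken by their names, 20 were higher and 4 lower in *daf-2(-)* than in WT, and 25 and 3 relative to the double mutant, with medians of 0.47 and 0.77, and none was called in the double mutant against WT. Of all genes 4.54% and 7.14% were called against WT and 5.46% and 15.5% against the double mutant, which also applies to the smaller groups that follow. The largest changes among lysozymes went both ways. *lys-7*, a lysozyme known as a DAF-16 target, stood at 20.02 and 98.6 RPKM for WT, 514 and 691 for *daf-2(-)* and 33.8 and 49.4 for the double mutant, and *ilys-5*, an invertebrate-type lysozyme, at 1476 and 2567 RPKM (WT), 21.4 and 18.9 (*daf-2(-)*) and 936.5 and 1151 (double mutant). Saposin-like *spp* genes were higher in 8 of 23 cases against WT and in 13 of 23 against the double mutant, and lower in 0. Of 8 measured targets reported for PMK-1, 2 were higher and 2 lower than in WT, and 2 and 5 relative to the double mutant.

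The counts of calls rest on few libraries. At the adjusted p, the calls in *daf-2(-)* against WT were all lost without WT replicate 1 or without WT replicate 2, over all genes as over members. With all libraries, 24 members were higher and 17 lower than WT at an unadjusted p, where 4.84% and 7.77% of all genes were called. Without any 1 of the 6 libraries, fewer members and fewer of all genes were called at the adjusted p in both comparisons of *daf-2(-)*. Against WT, the median log2 fold change of the 96 members ranged from 0.188 to 0.365 over these 6 fits. That of all genes at that level ranged from -0.372 to -0.177. Against the double mutant these medians ranged from 0.0269 to 0.427 and from -0.443 to -0.236. Of the calls against WT, 17 of 21 and 10 of 14, and 24 of 29 and 12 of 23 against the double mutant, were made at an unadjusted p without each library in turn. The calls of *clec-52*, *clec-258*, *clec-61*, *clec-13*, *clec-146*, *clec-10*, *clec-47*, *clec-170*, *clec-160* and *clec-3* against the double mutant were made at the adjusted p in all 14 alternatives run with limma at that p.

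**Figure D5:**
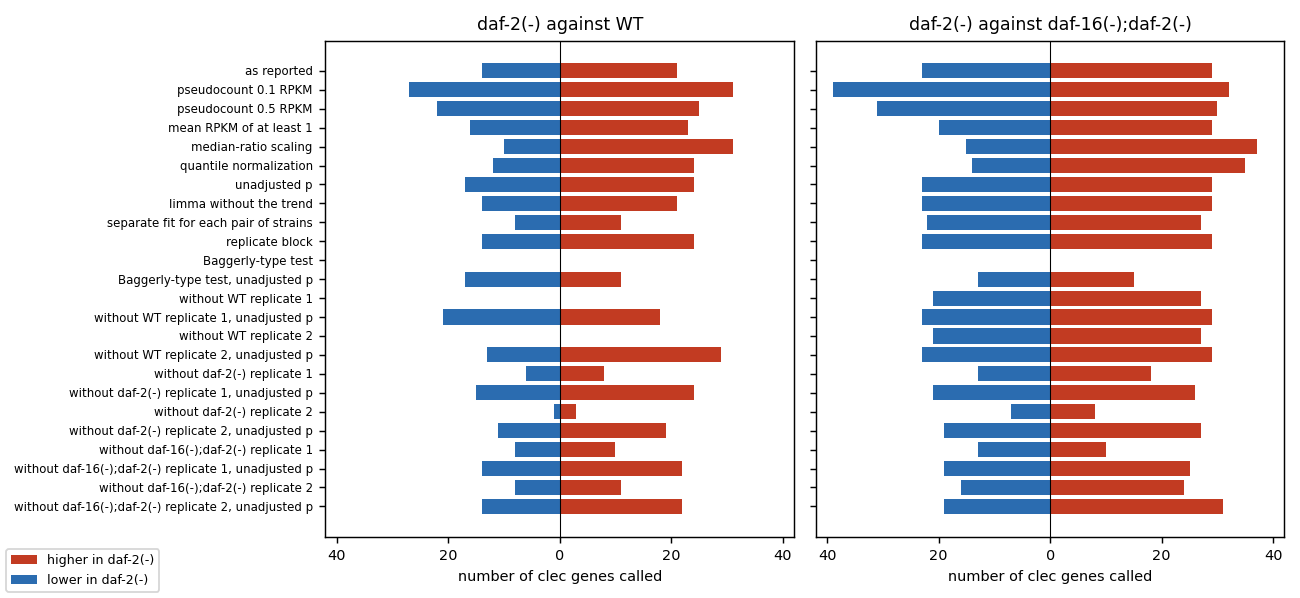
Number of *clec* genes called (horizontal axis, higher in *daf-2(-)* in red to the right, lower in blue to the left) against WT (left panel) and against the double mutant (right panel) under each way of processing. The reported counts are 21 and 14, and 29 and 23; rows with no bar are settings in which no gene was called.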

How the data were processed

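The authors demultiplexed Illumina GAIIx reads with CASAVA 1.8.2, used CLC Genomics Workbench to align them to WS230 with its annotation, and deposited RPKM, given mostly to 2 decimals, in 1 table for each of 3 strains. How reads that match several genes or either strand were counted is not given in the sources used here. The tables write a comma within large values, which was removed. Each table leaves out genes at 0 in both replicates, and these were set to 0. The tables were joined by name, 6 names found on more than 1 line were left out, and the 20661 others were tested with limma 3.58.1 (R 4.3.3) on log2(RPKM + 1), letting the spread follow the mean level, with no filter. The study's own test was Baggerly's at an unadjusted p, and a test of that type and the unadjusted p were run as alternatives beside other pseudocounts, a filter, scalings, separate fits, a replicate block and each library left out. Leaving out libraries at an unadjusted p and the test of Baggerly's type at an unadjusted p were added after seeing the data. RPKM holds no counts, so no count model or counting interval was used. The method was run on simulated data with independent normal noise of the fitted spread and known changes added. Such data hold no scaling difference and no dependence between libraries, so they cannot test for either.

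The members, lists, tests and the naming rule were chosen with earlier results of these data known. Named were up to 8 called, not overlapping members with a mean of at least 10 RPKM in each direction and comparison, the 10 of highest mean, the 13 listed as linked to pathogens, and members called in opposite directions in both mutants against WT, of which there were none. Others were named after their values were seen, as called members in groups of neighbours or at low levels. Gene order, chromosomes and exon overlap came from WBcel235 annotations, matched by name for 234 members, and no coordinates were combined with WS230. No sequences were used.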

Additional observations from a re-analysis of the deposited data

How the results depend on the processing

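Of the reported counts of *clec* genes, 21 higher and 14 lower in *daf-2(-)* than in WT became 11 and 8 with separate fits by pair of strains. Of all genes 2.67% and 2.22% were then called. The lower count became 27 and 22 with pseudocounts of 0.1 and 0.5 RPKM, where 10.5% and 9.06% of all genes were lower. Against the double mutant, the 23 lower became 39 with a pseudocount of 0.1 RPKM, 15 after median-ratio scaling and 14 after quantile normalization. Of all genes 19%, 7.38% and 7.78% were then lower, against 15.5% as reported. In the double mutant against WT, 1 higher became 0 without the trend, with separate fits and with the replicate block and 4 at an unadjusted p, and 0 lower became 3 with a minimum mean of 1 RPKM, 3 with either scaling and 9 at an unadjusted p. Of all genes, 0.00484% were then higher without the trend, 0% with separate fits or the replicate block, and 1.42% at an unadjusted p. Lower were 0.229% of the genes kept by the minimum mean, 0.111% with either scaling and 0.736% at an unadjusted p. The test of Baggerly's type called 0 of all genes at its adjusted p in any comparison. At an unadjusted p it called 11 members higher and 17 lower in *daf-2(-)* than in WT, 15 and 13 against the double mutant, and 3 and 4 in the double mutant against WT. Of all genes it then called 2.22% and 6.2%, 2.63% and 6.83%, and 0.842% and 0.765%.

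With 1 library left out, at the adjusted or an unadjusted p, the counts ranged from 0 to 29 higher and 0 to 21 lower than WT, from 8 to 31 and 7 to 23 against the double mutant, and from 0 to 7 and 0 to 11 in the double mutant against WT (5 higher at an unadjusted p without WT replicate 1, 5 lower without double mutant replicate 1). With the replicate block the counts were 24 and 14, 29 and 23, and 0 and 0. Deviations from the strain mean correlated weakly across genes between libraries of the same replicate number (0.109, 0.158 and -0.163). The labels do not say whether such libraries were prepared together, and these correlations cannot show it. As a ratio of mean RPKM with no pseudocount, *clec-61* had a log2 fold change of 6.67 against the double mutant and *clec-10* one of -6.58, against 3.96 and -4.54 with 1 RPKM added. The causes of these changes were not tested.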
